A study of Mus musculus with 12 samples.

Results

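AMP-activated protein kinase (AMPK) subunit genes and the genes of the kinases that switch the enzyme on were examined in arrays of KK-Ay and control mice. The 9 genes were Prkaa1, Prkaa2, Prkab1, Prkab2, Prkag1, Prkag2, Prkag3, Stk11 and Camkk2, out of 19938 genes that had a transcript cluster (a set of probes read as 1 value) with exactly 1 gene symbol. Each was represented by 1 such cluster, and all 9 were tested. In every comparison made, 0 of the 9 genes passed an adjusted p of 0.05. The changes that did pass lay in other genes of the pathway, among them both acetyl-CoA carboxylases, Sik1, Appl1 and Nt5e. With the arrays of the compared groups fitted alone, the calls between 2 groups for these genes were lost. Their adjusted p by limma was then 0.0612 for Nt5e to 0.285 for Sik1. For Acaca this covers its cluster with the highest mean.

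The series held 12 Affymetrix arrays in 6 title groups of 2 arrays each. KK-Ay mice carry the A-y allele of agouti on the KK background, in which agouti is made in tissues that normally lack it, and they become obese and diabetic. The design text of the series named 6Y, 16Y and 42Y as mice with type 2 diabetes (T2D) and 1-3, 1-5 (called group 1 here), 6K and 42WKK as controls. The sample records gave the opposite status for 4 arrays, those of 6K and 42Y. The study used KK and KK-Ay mice, and the paper placed the mice at 42 weeks of age. The sources used here give neither what the title numbers 1, 6 and 16 stand for nor the strain of group 1, and no sex or treatment by array. Nor do they tie each array to its own mouse, and p-values therefore reflect the spread of these samples alone, which may be technical.

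Agouti (symbol a) had log2 signals of 6.78 to 7.06 in the 6 T2D arrays and of 5.20 to 5.51 in the 6 control arrays, with 6K on the control side and 42Y on the T2D side, so the status of the design text was used. The methods name total RNA of liver. The sample records also give total RNA as the molecule, but they name blood, a promoter fraction and a step with an MBD-Biotin protein, which belong to a methylation assay. The median of 8 hepatocyte genes, such as Alb, was 13.15 to 13.34 in all arrays, whereas that of the 6 of 7 T cell genes measured was 3.91 to 4.35. For the 2 of 4 erythroid genes measured it was 7.27 to 7.62. The median of all clusters ranged from 4.74 to 4.88 between arrays. The correlation of arrays within a group was lowest for 42Y, with r = 0.983, and highest for 42WKK, with r = 0.991.

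AMPK is the energy sensor of the cell. It is a complex of a catalytic alpha subunit, a beta subunit that holds the complex together and binds glycogen, and a gamma subunit that binds AMP, ADP and ATP. The enzyme is active when LKB1, the product of Stk11, or the calcium-dependent kinase CaMKK2 has phosphorylated the alpha subunit. In liver it restrains fatty acid and cholesterol synthesis and favours fatty acid oxidation, in part by phosphorylating acetyl-CoA carboxylase. Phosphorylation and kinase activity are not read by an expression array.

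The study paired expression with promoter DNA methylation, which was not analysed here. The sequences before the transcription starts are printed for a pair of member genes, with CpG dinucleotides, the sites of methylation, in capitals. Prkaa1 is shown because its signal separated the title groups with the smallest p of the 9 genes, and Prkag2 because the 1 cluster on the array stood for a gene with 3 annotated starts. Each sequence is the 250 bases before a start, from RefSeq on build GRCm38.p6, written 5′ to 3′ on the strand of the gene.
Prkaa1, chr15:5143611-5143860, plus strand: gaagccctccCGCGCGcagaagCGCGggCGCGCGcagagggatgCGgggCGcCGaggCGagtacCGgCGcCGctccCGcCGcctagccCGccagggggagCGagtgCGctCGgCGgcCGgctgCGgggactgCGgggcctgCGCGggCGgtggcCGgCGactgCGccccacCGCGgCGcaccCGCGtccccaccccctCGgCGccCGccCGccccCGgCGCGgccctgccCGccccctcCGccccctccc
Prkag2 upstream start, chr5:25100643-25100892, minus strand: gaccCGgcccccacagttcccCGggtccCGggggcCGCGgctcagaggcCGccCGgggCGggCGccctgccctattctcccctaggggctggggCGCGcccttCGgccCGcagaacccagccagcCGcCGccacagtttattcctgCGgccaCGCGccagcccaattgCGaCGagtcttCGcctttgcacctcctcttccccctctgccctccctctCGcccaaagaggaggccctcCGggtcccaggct
Prkag2 middle start, chr5:24995754-24996003, minus strand: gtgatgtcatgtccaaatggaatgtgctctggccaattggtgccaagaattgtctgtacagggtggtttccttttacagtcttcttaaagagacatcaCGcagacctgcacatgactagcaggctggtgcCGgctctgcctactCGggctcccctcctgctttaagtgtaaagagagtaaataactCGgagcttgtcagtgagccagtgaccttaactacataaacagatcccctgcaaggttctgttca
Prkag2 downstream start, chr5:24908510-24908759, minus strand: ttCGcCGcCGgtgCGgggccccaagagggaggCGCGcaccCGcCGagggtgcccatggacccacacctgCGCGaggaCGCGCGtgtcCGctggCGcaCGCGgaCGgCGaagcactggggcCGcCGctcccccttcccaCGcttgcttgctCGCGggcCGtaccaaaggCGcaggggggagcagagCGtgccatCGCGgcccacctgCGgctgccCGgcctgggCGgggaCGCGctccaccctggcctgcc

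The Prkaa1 window held 45 CpG, and as many were found in 0.405% of the 32851 mouse promoter windows of this length. The starts of Prkag2 differed from each other, with 23 CpG before the upstream start, 4 before the middle one and 34 before the downstream one. The signal of the Prkag2 cluster could not be assigned to one of these starts. All 9 genes were matched, in 11 windows, and the median over these was 24 CpG, against 6 over all windows. The letters GGGCGG, read on both strands, were in 7 of the 11 windows and in 32.7% of all, and CCAAT was in 4 of the 11 and in 33.8% of all. The E-box CACGTG was in 0 of the 11 windows and in 6.02% of all. These counts describe sequence and were not related to the signals.

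The catalytic subunits came first. Prkaa1, cluster 10422707, encodes AMPK alpha1. The Prkaa1 signal was 7.12 and 7.14 in group 1, 7.36 and 7.25 in 6K, 7.64 and 7.66 in 42WKK, 7.58 and 7.58 in 6Y, 7.31 and 7.47 in 16Y, and 7.36 and 7.49 in 42Y. It was lowest in group 1 and highest in 42WKK. Group 1 lay below all other arrays, 6Y and 42WKK lay above all others, and 6K, 16Y and 42Y overlapped between them. In 42Y it was 0.23 lower than in 42WKK on the log2 scale (standard error 0.10, adjusted p = 0.288 by limma), a fold of 0.853 with a 95% interval from 0.728 to 1.00. In 6Y it was 0.28 higher than in 6K (standard error 0.10, adjusted p = 0.899). Both arrays of each pair lay on the stated side. Any difference among the 6 groups had an adjusted p of 0.0726 in the F-test of limma, the smallest of the 9 genes. This p ranged from 0.0129 to 0.191 over 17 alternatives and was under 0.05 in 4 of them.

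Prkaa2, cluster 10514779, encodes AMPK alpha2, the other catalytic subunit. The Prkaa2 signal was 8.58 and 8.35 in group 1, 8.86 and 8.49 in 6K, 8.90 and 8.77 in 42WKK, 8.81 and 8.68 in 6Y, 8.44 and 8.60 in 16Y, and 8.51 and 8.24 in 42Y. It had its highest mean in 42WKK and its lowest in 42Y, and each group overlapped with the next in the order of means. The 42Y arrays were both below the 42WKK arrays, by 0.46 in the mean (standard error 0.16, adjusted p = 0.190), a fold of 0.727 with an interval from 0.566 to 0.934. The difference between 6Y and 6K was 0.07 (standard error 0.16, adjusted p = 0.982), with overlapping arrays.

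**Figure D1:**
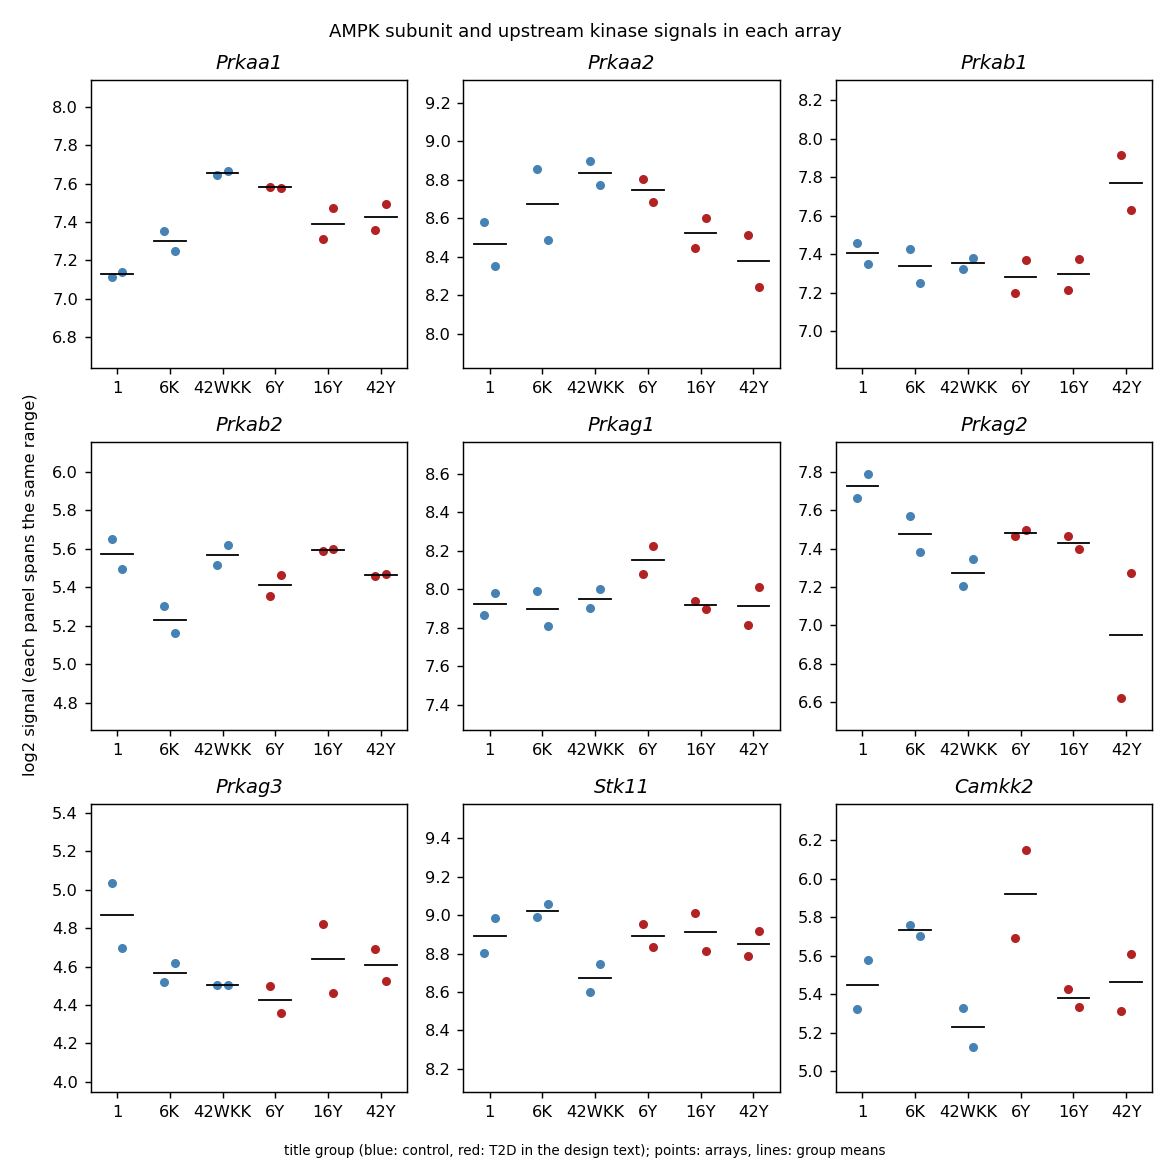
Log2 signal of the 9 AMPK subunit and upstream kinase genes (vertical axes, each panel spanning the same range) in the 6 title groups (horizontal axes). Points are single arrays, 2 per group, blue for control and red for T2D groups, and lines are group means. Prkab1 is highest in both 42Y arrays, Prkag2 is lowest in 1 of the 42Y arrays at 6.62, and the Prkaa1 arrays of 42WKK and 6Y lie above all others.

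Among the scaffold subunits, Prkab1 (beta1, cluster 10533026) gave the signal that set the 42Y group apart. Prkab1 measured 7.46 and 7.35 in group 1, 7.43 and 7.25 in 6K, 7.33 and 7.38 in 42WKK, 7.20 and 7.37 in 6Y, 7.22 and 7.38 in 16Y, and 7.92 and 7.63 in 42Y. Both 42Y arrays were above the other 10, which overlapped with each other. The difference from 42WKK was 0.42 (standard error 0.13, adjusted p = 0.154), a fold of 1.34 with an interval from 1.09 to 1.65. The difference from 16Y was 0.48 (standard error 0.13, adjusted p = 0.160), and these comparisons share the 42Y arrays. Without array 42Y-1 the differences were 0.28 and 0.33, and without 42Y-2 they were 0.56 and 0.62. Among clusters with a mean signal of at least 6, where fewer were tested, the adjusted p was 0.0470 and 0.0475, and over all alternatives it ranged from 0.0470 to 0.521 and from 0.0475 to 0.474.

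Neutrophil medians were higher in the same arrays than in 42WKK and 16Y. The median of 5 of 5 neutrophil genes, such as S100a8 and S100a9, was 3.89 and 3.75 in 42WKK, 4.25 and 4.11 in 16Y, and 4.54 and 5.54 in 42Y. The log2 of their summed signal was 7.24 to 7.79 in 42Y and 6.36 to 6.47 in 42WKK, and all 5 genes were above both 42WKK arrays in both 42Y arrays. In both 42Y arrays 3 of the 5 were above both 16Y arrays, and 2 were above all arrays of the other groups. Over all clusters, 47.8% did not overlap, in either direction, between 42Y and 42WKK, and 42.1% between 42Y and 16Y. The share above all other groups was not computed. Of the 42Y pair, the array with the higher Prkab1 signal had the lower neutrophil level. Its neutrophil median of 4.54 was under the 4.79 of all clusters in that array. Array 6Y-2 had a neutrophil median of 4.56, with a Prkab1 signal of 7.37. The part of neutrophils in the Prkab1 signal was not tested. In bulk tissue a change in the number of cells and a change in RNA per cell cannot be told apart.

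Prkab2, cluster 10494574, encodes beta2, and its mean was under 6. The Prkab2 signal was 5.65 and 5.49 in group 1, 5.30 and 5.16 in 6K, 5.51 and 5.62 in 42WKK, 5.36 and 5.46 in 6Y, 5.59 and 5.60 in 16Y, and 5.46 and 5.47 in 42Y. The 6K arrays were below all others, and the remaining groups spanned 5.36 to 5.65. In 42Y it was 0.10 lower than in 42WKK (standard error 0.10, adjusted p = 0.670), with values from -0.16 to -0.05 when 1 array was left out.

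The nucleotide-binding subunits varied in different groups. Prkag1, cluster 10432281, encodes gamma1. Prkag1 measured 7.87 and 7.98 in group 1, 7.99 and 7.81 in 6K, 7.90 and 8.003 in 42WKK, 8.08 and 8.23 in 6Y, 7.94 and 7.90 in 16Y, and 7.81 and 8.01 in 42Y. The 6Y arrays were above all others, and the remaining groups overlapped. Against 6K the 6Y arrays were 0.26 higher (standard error 0.12, adjusted p = 0.921). Between 42Y and 42WKK the difference was -0.04, with an interval from -0.31 to 0.23 and overlapping arrays.

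Prkag2, cluster 10528702, encodes gamma2, the subunit with the widest spread of the 9 genes across arrays, 1.16 on the log2 scale. The Prkag2 signal was 7.66 and 7.78 in group 1, 7.57 and 7.38 in 6K, 7.20 and 7.34 in 42WKK, 7.46 and 7.50 in 6Y, 7.47 and 7.40 in 16Y, and 6.62 and 7.27 in 42Y. Group 1 was above all other arrays, and the 42-week groups were below the rest and overlapped with each other. Against 42WKK the 42Y mean was 0.33 lower (standard error 0.19, adjusted p = 0.428), and against 16Y it was 0.48 lower (standard error 0.19, adjusted p = 0.306). Both values rested on array 42Y-1. Without it they were -0.0004 and -0.16. Without 42Y-2 they were -0.65 and -0.81, and the second then passed, with an adjusted p of 0.0495, in a range from 0.0495 to 0.654 over alternatives.

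Prkag3, cluster 10355639, encodes gamma3, the subunit of glycolytic skeletal muscle. Its signal was 5.03 and 4.70 in group 1, 4.52 and 4.62 in 6K, 4.50 and 4.51 in 42WKK, 4.50 and 4.36 in 6Y, 4.82 and 4.46 in 16Y, and 4.69 and 4.52 in 42Y. These were low signals, above the median of all clusters in 1 of 12 arrays. Groups 6Y, 42WKK and 6K did not overlap with each other, by gaps of 0.0071 and 0.013, and the other groups overlapped with their neighbours. The median of 8 skeletal muscle genes was 4.44 to 4.87. The difference between 42Y and 42WKK was 0.10 (standard error 0.16, adjusted p = 0.794), and 0.02 without array 42Y-1.

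Of the upstream kinases, Stk11, cluster 10364683, encodes LKB1. The Stk11 signal was 8.80 and 8.98 in group 1, 8.99 and 9.06 in 6K, 8.60 and 8.75 in 42WKK, 8.95 and 8.83 in 6Y, 9.01 and 8.81 in 16Y, and 8.79 and 8.92 in 42Y. It was lowest in 42WKK, whose arrays were below all others, and the remaining groups overlapped with their neighbours. The 42Y mean was 0.18 above that of 42WKK (standard error 0.12, adjusted p = 0.494), or 0.11 to 0.25 with 1 array left out, and the 6Y mean was 0.13 below that of 6K (adjusted p = 0.949).

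Camkk2, cluster 10533529, encodes CaMKK2. The Camkk2 signal was 5.32 and 5.58 in group 1, 5.76 and 5.70 in 6K, 5.33 and 5.13 in 42WKK, 5.69 and 6.15 in 6Y, 5.43 and 5.33 in 16Y, and 5.31 and 5.61 in 42Y. Groups 6K and 6Y were above all other arrays and overlapped with each other. In 16Y it was 0.54 lower than in 6Y (standard error 0.18, adjusted p = 0.157), with an interval from -0.94 to -0.14, and this difference was -0.31 without array 6Y-2 and -0.77 without 6Y-1. Markers of other liver cells differed between the same arrays. The median of 5 of 5 endothelial genes was 7.88 and 8.07 in 6K, 7.92 and 8.32 in 6Y, and lower in 16Y, at 7.09 and 7.24. In 42WKK, where the Camkk2 mean was lowest, the endothelial median was 7.82 and 7.78. The log2 of their summed signal was 10.36 to 10.76 in 6Y and 9.53 to 9.72 in 16Y. For 5 of 5 stellate cell genes the median was 6.65 and 7.25 in 6Y against 5.95 and 6.01 in 16Y, with summed signals of 10.05 to 10.67 and 9.98 to 10.08. Their part in the Camkk2 signal was not tested.

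**Figure D2:**
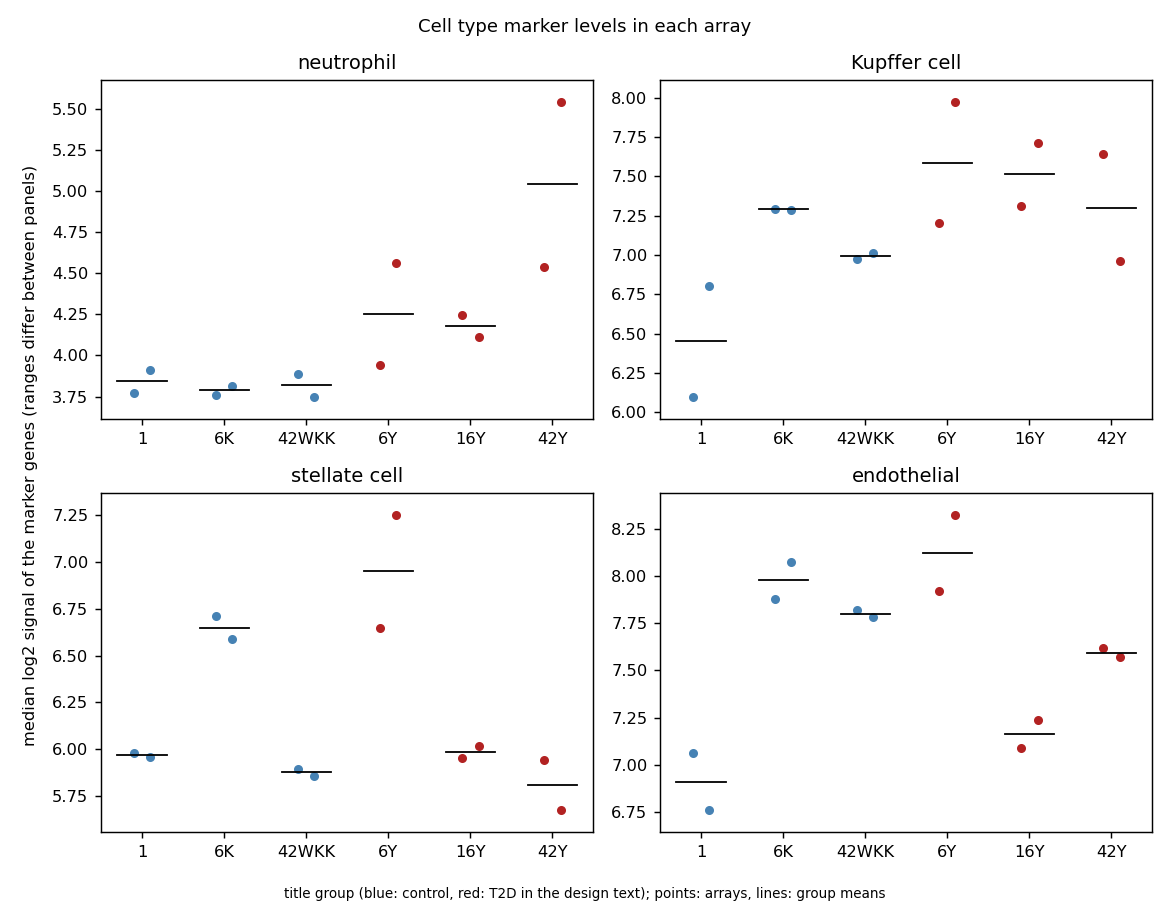
Median log2 signal of 5 genes each for neutrophils, Kupffer cells, stellate cells and endothelial cells (vertical axes, ranges differ between panels) in the 6 title groups (horizontal axes). Points are arrays and lines are group means. The neutrophil median is highest in 42Y, apart from 1 of the 6Y arrays at 4.56, and the stellate cell median is higher in 6K and 6Y than in the other groups.

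Each comparison was then read over the 9 genes together, beside all 35556 clusters. Between 42Y and 42WKK, which asks how mice with the A-y allele differ from KK mice at 42 weeks, 0 of 9 genes passed, against 1.85% of all clusters. At an unadjusted p under 0.05 there were 3 (Prkaa1, Prkaa2 and Prkab1), against 17.3% of all clusters, and ANOVA on the 4 arrays gave 0, against 10.7% of all clusters. With adjusted p that ANOVA called 0% of all clusters. The arrays of the groups did not overlap for 6 of 9 genes, against 47.8% of all clusters. Prkab1, Prkag3 and Stk11 were on the higher side, and Prkaa1, Prkaa2 and Prkab2 on the lower. The largest difference among the 9 genes was -0.46, and no interval reached beyond 0.566 or 1.65 as a fold.

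Between 6Y and 6K, 0 of 9 genes passed (0.00281% of all clusters). Prkaa1 was the 1 gene with an unadjusted p under 0.05 (5.28% of all clusters), and 5 of 9 did not overlap (35.4% of all clusters). Between 16Y and 6Y, both T2D groups, 0 of 9 passed (1.78%), Camkk2 had an unadjusted p under 0.05 (18.1%) and 5 of 9 did not overlap (49.4%). Between 42Y and 16Y, 0 of 9 passed (0.399%), Prkab1 and Prkag2 had an unadjusted p under 0.05 (13.9%) and 3 of 9 did not overlap (42.1%). With so few genes, a single gene moves each share a long way.

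Over the 6 T2D and 6 control arrays, no member gene separated the groups. The arrays overlapped for all 9 genes, so that 0 of 9 were apart, against 0.323% of all clusters. The count passing was 0 (0.208% of all clusters), and 0 had an unadjusted p under 0.05 (12.3%). Mean differences ran from -0.20 for Prkag2 to 0.12 for Camkk2 on the log2 scale, with adjusted p from 0.491 to 0.927. The 95% intervals of the 9 genes lay between folds of 0.730 and 1.28.

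The difference between 42Y and 42WKK was set against that between 6Y and 6K, the pairs of T2D and control arrays that share a title number. For Prkaa1 it was lower by 0.51 (standard error 0.14, adjusted p = 0.195), since 42Y lay below 42WKK and 6Y above 6K. For Prkaa2 it was lower by 0.53 (standard error 0.22, adjusted p = 0.362), and for Prkab1 it was higher by 0.48 (standard error 0.19, adjusted p = 0.327). These 3 genes had an unadjusted p under 0.05 (13.2% of all clusters) and 0 of 9 passed (0.143%). Any difference among the 6 groups was passed by 0 of 9 genes (5.43%), and 5 of 9 had an unadjusted p under 0.05 (26.4%), namely Prkaa1, Camkk2, Prkab1, Prkag2 and Prkab2.

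**Figure D3:**
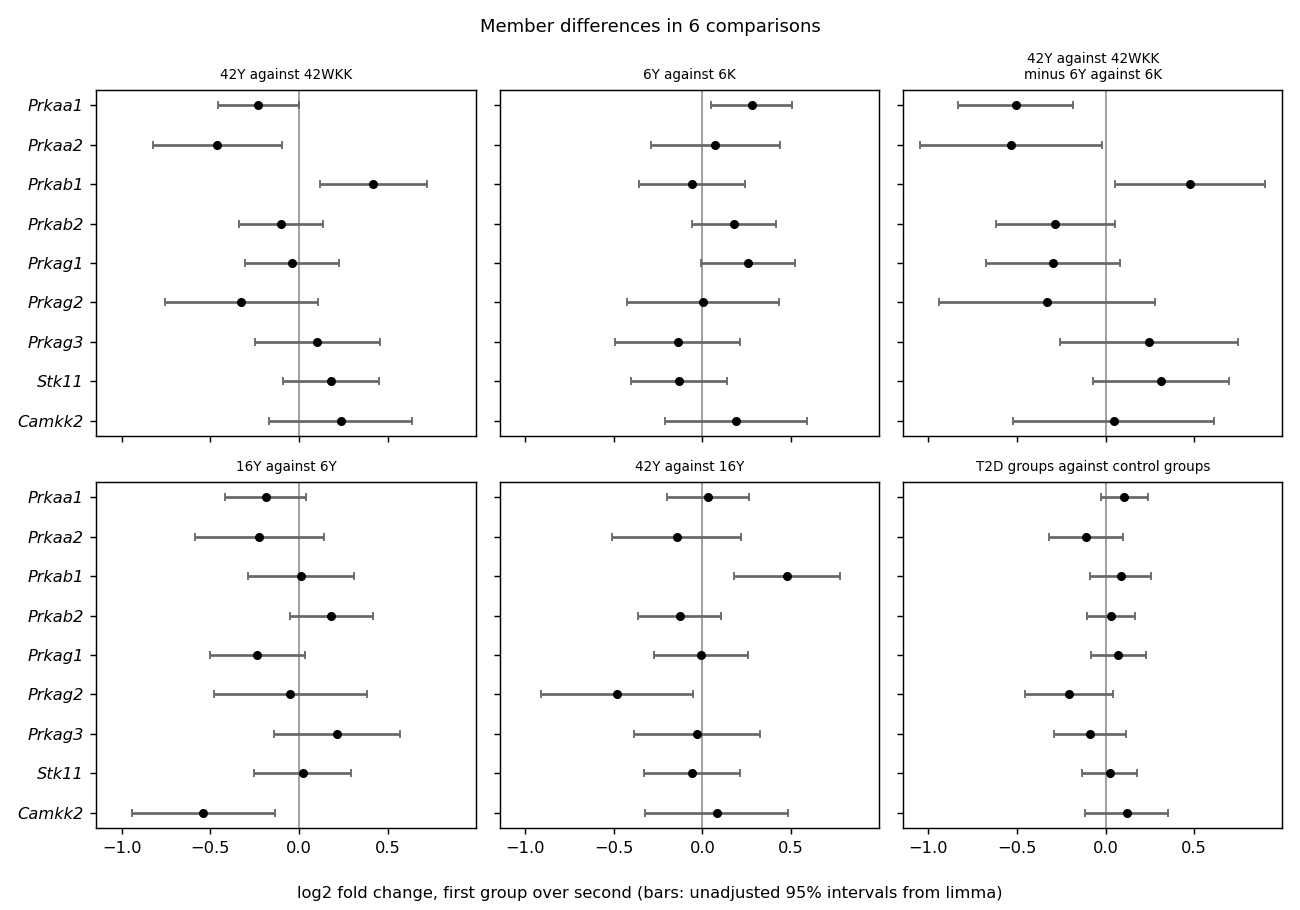
Log2 fold changes of the 9 genes (horizontal axes, first group over second) in 6 comparisons, with genes on the vertical axes. Points are limma estimates and bars are unadjusted 95% intervals. Intervals that leave out 0 are those of Prkaa1, Prkaa2 and Prkab1 for 42Y against 42WKK and for the difference of differences, Prkaa1 for 6Y against 6K, Camkk2 for 16Y against 6Y, and Prkab1 and Prkag2 for 42Y against 16Y, and none of them passed the adjusted p.

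The other genes of the pathway were read from lists. Of 9 genes of the LKB1 complex and other upstream regulators, 8 were measured and 0 passed in any comparison, against 0.00281% to 5.43% of all clusters. Between 42Y and 42WKK 7 of the 8 had a lower mean, with a median of -0.09, against 0.02 over all clusters. Strada, the pseudokinase that LKB1 needs for activity, measured 5.13 and 5.22 in 42WKK and 4.54 and 5.18 in 42Y, so that its difference of -0.32 (standard error 0.19, adjusted p = 0.442) rested on array 42Y-1. Cab39, the scaffold MO25 of that complex, had -0.10 (standard error 0.10, adjusted p = 0.655). Ppp2cb, a catalytic subunit of a phosphatase that acts on AMPK, had 0.27 (standard error 0.10, adjusted p = 0.208).

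Of 12 kinases related to AMPK that LKB1 also activates, 12 were measured. Sik1, a salt-inducible kinase that restrains gluconeogenic transcription through Crtc2, was the 1 gene that passed between groups. It did so in 42Y against 16Y, where 0.399% of all clusters passed. The Sik1 signal was 7.24 and 7.57 in group 1, 7.38 and 7.80 in 6K, 7.42 and 6.94 in 42WKK, 6.79 and 7.02 in 6Y, 6.49 and 6.64 in 16Y, and 7.85 and 8.19 in 42Y. It was highest in both 42Y arrays. Sik1 rose by 1.45 in 42Y against 16Y (standard error 0.22, adjusted p = 0.0420), and this call was lost without any 1 array of group 1, 6Y, 16Y, 42WKK or 42Y, with an adjusted p of up to 0.285 over alternatives. Against 42WKK its difference was 0.84 (standard error 0.22, adjusted p = 0.103). The neutrophil medians were also higher in 42Y than in 16Y, at 4.54 and 5.54 against 4.25 and 4.11. In group 1, 6K and 42WKK they were 3.75 to 3.91, under those of 16Y, whereas the Sik1 signals there were above 16Y. In 6Y the neutrophil medians were 3.94 and 4.56. Of the 5 neutrophil genes, 3 were above both 16Y arrays in both 42Y arrays, while 42.1% of all clusters did not overlap, in either direction. The median of 4.54, in 42Y-1, was under the 4.79 of all clusters in that array. The part of neutrophils in the Sik1 signal was not tested. The sources used here do not give the time of day at which tissue was taken. The median of the 12 genes was -0.02 for 42Y against 16Y and 0.13 for 42Y against 42WKK, against -0.03 and 0.02 over all clusters.

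Of 20 substrates of AMPK, 19 were measured, and both acetyl-CoA carboxylases passed as lower in 16Y than in 6Y. Acacb encodes the mitochondrial enzyme, whose malonyl-CoA restrains fatty acid oxidation. The Acacb signal was 8.40 and 8.41 in group 1, 8.19 and 8.02 in 6K, 8.19 and 8.08 in 42WKK, 8.26 and 8.24 in 6Y, 7.39 and 7.41 in 16Y, and 6.94 and 7.39 in 42Y. The 16Y and 42Y arrays were below all others, while 6Y was at the level of the controls. Acacb was lower in 42Y than in 42WKK by 0.97 (standard error 0.14, adjusted p = 0.0213), and in 16Y than in 6Y by 0.85 (standard error 0.14, adjusted p = 0.0343). It also passed between all T2D and control groups, at -0.61 (standard error 0.08, adjusted p = 0.0389). The call against 42WKK was lost without either 42WKK array, and the other calls were lost without any 1 array of group 1, 6K, 6Y, 16Y or 42WKK, with adjusted p of up to 0.467 for 42Y against 42WKK, 0.154 for 16Y against 6Y and 0.958 for T2D against control. With the status of the sample records, the T2D difference was 0.02.

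Acaca encodes the cytosolic acetyl-CoA carboxylase, the first step of fatty acid synthesis. In cluster 10394538 Acaca was 8.77 and 8.60 in group 1, 8.80 and 8.47 in 6K, 9.05 and 8.89 in 42WKK, 8.77 and 8.73 in 6Y, 7.88 and 7.92 in 16Y, and 8.42 and 8.36 in 42Y. The 16Y arrays were lowest and the 42Y arrays next. Between 16Y and 6Y the difference was -0.85 (standard error 0.13, adjusted p = 0.0307), and this call was lost without any 1 array of 6Y, 16Y or 42WKK, with an adjusted p of up to 0.136. Between 42Y and 42WKK this cluster had -0.58 (standard error 0.13, adjusted p = 0.0717), whereas Acaca cluster 10379820 had -0.97 (standard error 0.18, adjusted p = 0.0378). Both clusters had a lower mean in 42Y than in 42WKK. Cluster 10394538 was 0.49 higher in 42Y than in 16Y (standard error 0.13, adjusted p = 0.142). Between T2D and control groups it had -0.42 (standard error 0.08, adjusted p = 0.0864).

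Other substrates between 42Y and 42WKK did not pass. Gys2, the liver glycogen synthase, had -0.86 (standard error 0.18, adjusted p = 0.0590), and Ulk1, a kinase that starts autophagy, had 0.64 (standard error 0.16, adjusted p = 0.0909). Of the 19 substrates 11 had a higher and 8 a lower mean in 42Y, with a median of 0.09. By the F-test over the 6 groups 5 of 19 passed, against 5.43% of all clusters, namely Acaca, Acacb, Mlxipl, Crtc2 and Hdac5. Mlxipl encodes ChREBP, a glucose-responsive activator of lipid synthesis genes, and it measured 9.98 and 10.04 in group 1 and between 9.07 and 9.60 in the other groups. Crtc2, a coactivator of gluconeogenesis, measured 6.85 and 6.87 in 6K and 6.85 and 7.01 in 6Y, against 7.34 and 7.66 in 16Y and 7.56 and 7.49 in 42Y. In group 1 Crtc2 was 7.35 and 7.19 and in 42WKK 7.07 and 6.98, so that array 1-3 was above 16Y-1. Hdac5, a class IIa deacetylase, was lowest in 42Y, at 6.45 and 6.53.

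**Figure D4:**
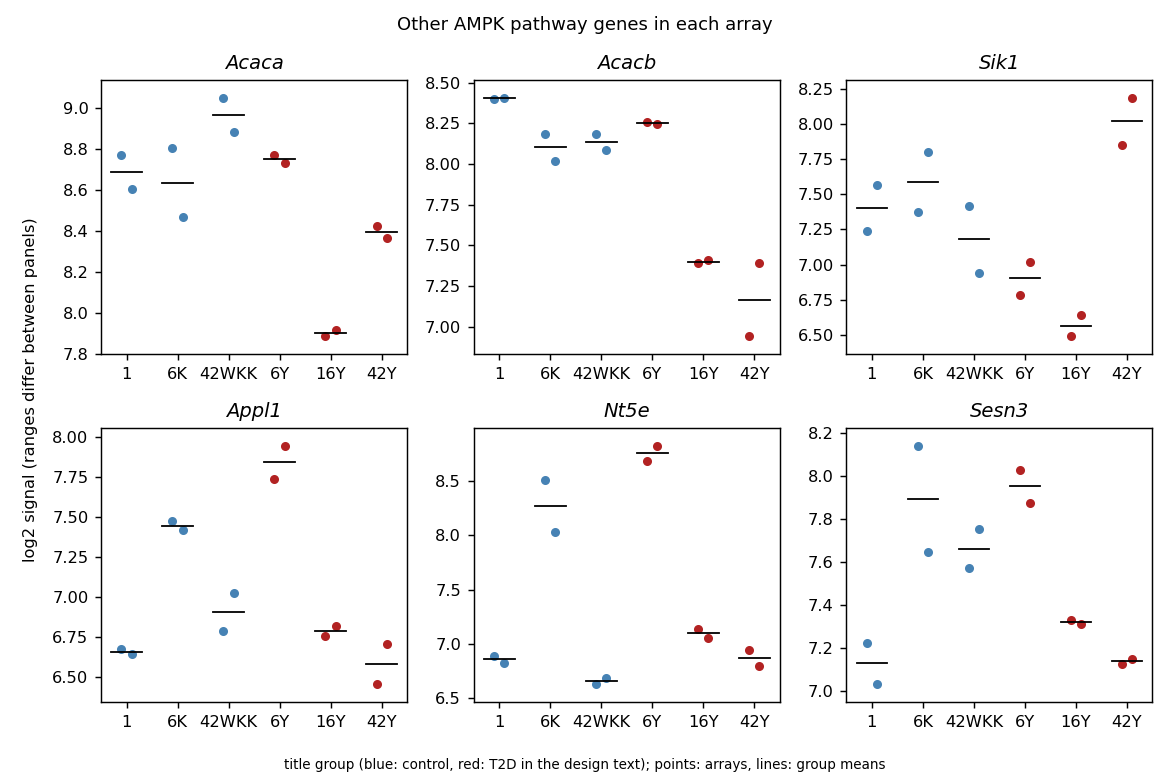
Log2 signal of Acaca (cluster 10394538), Acacb, Sik1, Appl1, Nt5e and Sesn3 (vertical axes, ranges differ between panels) in the 6 title groups (horizontal axes). Points are arrays, 2 per group, and lines are group means. Acacb is at 7.41 or lower in 16Y and 42Y and at 8.02 or higher elsewhere, and Nt5e is at 8.03 or higher in 6K and 6Y and at 7.14 or lower elsewhere.

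Sestrins, folliculin partners and adiponectin receptors feed into AMPK, and 9 of 9 were measured. Appl1, an adaptor that couples adiponectin receptors to AMPK, was the 1 gene of this list that passed between groups. It did so in 16Y against 6Y, where 1.78% of all clusters passed. The Appl1 signal was 6.67 and 6.65 in group 1, 7.48 and 7.42 in 6K, 6.79 and 7.03 in 42WKK, 7.74 and 7.95 in 6Y, 6.76 and 6.82 in 16Y, and 6.46 and 6.71 in 42Y. Groups 6K and 6Y were above all others, as they were for the endothelial and stellate cell medians in the plot of marker levels. The endothelial medians of 42WKK, at 7.82 and 7.78, were close to those of 6K, at 7.88 and 8.07, whereas its Appl1 signals were not. The stellate cell medians were 6.59 to 7.25 in 6K and 6Y, 5.89 and 5.86 in 42WKK, and at most 6.01 in the remaining groups. The part of endothelial or stellate cells in the Appl1 signal was not tested. Appl1 fell by 1.05 in 16Y against 6Y (standard error 0.13, adjusted p = 0.0197). This call was lost without any 1 array of 6Y or 16Y, with an adjusted p of up to 0.115 over alternatives. By the F-test, which 5.43% of all clusters passed, 3 of 9 genes passed, Appl1, Fnip1 and Sesn3. Sesn3, a sestrin, was 8.14 and 7.64 in 6K and 8.03 and 7.87 in 6Y, while it was lower in 16Y (7.33 and 7.31), 42Y (7.13 and 7.15) and group 1 (7.22 and 7.03). In 42WKK Sesn3 was 7.57 and 7.75, which overlapped with 6K. Adipor2, an adiponectin receptor of liver, had -0.57 between 42Y and 42WKK (standard error 0.17, adjusted p = 0.146), and Adipor1 had 0.37 (standard error 0.10, adjusted p = 0.103).

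Enzymes of adenine nucleotides were read because the gamma subunits bind AMP, ADP and ATP, and 10 of 11 were measured. Nt5e encodes CD73, which makes adenosine from AMP outside the cell. The Nt5e signal was 6.89 and 6.83 in group 1, 8.51 and 8.03 in 6K, 6.63 and 6.68 in 42WKK, 8.68 and 8.82 in 6Y, 7.14 and 7.06 in 16Y, and 6.95 and 6.80 in 42Y. It was above all other arrays in 6K and 6Y, the groups that also had the highest stellate cell medians, at 6.59 to 7.25. The summed stellate cell signals overlapped, at 10.17 to 10.27 in 6K, 10.05 to 10.67 in 6Y and 10.11 to 10.27 in 42WKK. Of the 5 stellate cell genes, 2 in 6K and 3 in 6Y were above 42WKK in both arrays. The share of all clusters was not computed for these counts. The endothelial medians were also highest in 6K and 6Y, at 7.88 to 8.32, with 42WKK next at 7.78 to 7.82. The part of stellate or endothelial cells in the Nt5e signal was not tested. Nt5e fell by 1.65 in 16Y against 6Y (standard error 0.15, adjusted p = 0.00790), and the call was lost without 6Y-2, 16Y-1 or 16Y-2, with an adjusted p of up to 0.0917. Nt5c2, a cytosolic nucleotidase that acts mainly on IMP and GMP, had -0.32 between 42Y and 42WKK (standard error 0.12, adjusted p = 0.211).

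The genes most like Prkaa1 and Camkk2, the members with the smallest F-test p, were sought among 8494 clusters with 1 symbol and a mean of at least 6. Over the 12 arrays Prkaa1 varied most closely with Orc5 (Pearson r = 0.961, Spearman rho = 0.937), Mindy3 (r = 0.957, rho = 0.881) and Slu7 (r = 0.952, rho = 0.937). Camkk2 varied most closely with Rpl27a (r = 0.917, rho = 0.888), Cpn2 (r = 0.891, rho = 0.916) and Birc3 (r = 0.890, rho = 0.748). These are descriptions without a test, over arrays that share their groups and their normalization.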

How the data were processed

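RNA of 12 mouse samples was hybridized to Affymetrix arrays. Per transcript cluster, the authors deposited log2 signals. They come from Affymetrix Expression Console (submitters' processing notes) with robust multichip analysis in its sketch form (methods). An exon array is named in the methods, but cluster identifiers match the mouse gene array. Gene symbols came from the platform annotation. Of 35556 clusters, 21789 had 1 symbol. A mean per title group was fitted to these log2 values over all 12 arrays, 2 per group, by lmFit and eBayes of limma 3.58.1 (R 4.3.3), without trend. A call is a Benjamini-Hochberg adjusted p under 0.05 over all clusters. The fit was tested on simulated data. Where 1 array was left out, its partner was assumed to vary like the other groups. The precision is limited by the number of arrays, which have no read depth. The members and lists were chosen with earlier results of these data known. Genes named are the 9 members, list genes called in a comparison (at most the 4 largest per list) or whose role helps to read the members, agouti, and the 3 genes most correlated with each of the members with the smallest F-test p. Genes outside the members with several clusters are given by the cluster with the highest mean. Alternatives covered normalization, filters, variance trend, the arrays fitted, status, replicate block, ANOVA and each array left out.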

Additional observations from a re-analysis of the deposited data

Results flagged for a closer look

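In 18 sets of 6 arrays (each of the 9 genes in the T2D and in the control arrays), the gap of the highest or lowest array to its neighbour was measured against the range of the set (Dixon's test). Chance gives about 1 such array in 20 sets, and 2 were found. Prkag2 in array 42Y-1 was 6.62, below the other 5 T2D arrays. Prkag3 in array 1-3 was 5.03, above the other 5 control arrays.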

How the results depend on the processing

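The 0 of 9 members called became 1 (Prkab1) for 42Y against 42WKK and 1 (Prkab1) for 42Y against 16Y among clusters with a mean log2 of at least 6, where 6 of the 9 members were tested. For any difference among the 6 groups it became 2 (Prkaa1 and Prkab1) with that filter, and 1 (Prkaa1) with each array centred on its median, with a variance trend or with clusters of 1 symbol. With 1 array left out the count ranged from 0 to 1 for 42Y against 16Y and from 0 to 1 for any difference, both with Prkag2 and without 42Y-2, and stayed at 0 in the other comparisons. The cause was not tested. The difference of Prkag1 between 42Y and 42WKK changed sign, from -0.14 to 0.060, with 1 array left out. That of Acacb between T2D and control became 0.017 with the status of the sample records.

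No shift shared by replicate number was seen, since the correlations of deviations between groups were -0.04 to 0.05. This cannot show whether arrays with the same number were handled together. With the replicate block over 6K, 6Y, 16Y and 42Y, 0 of 9 members were called for 6Y against 6K, 16Y against 6Y and 42Y against 16Y, and 0, 16 and 1 of all clusters, against 0, 19 and 7 in the same arrays without it. That fit without the block was added after seeing the data. Signals of Prkab2, Prkag3 and Camkk2 had means under 6, and whether they were above background was not measured.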
